A study of Mus musculus with 6 samples.

Results

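Cells carry receptors in the cytosol that recognise RNA or DNA of viruses, damaged nuclei and mitochondria, and 10 mouse genes of this system are described here in sorted macrophages. The genes were chosen by function, with earlier results of these data known, and they are 10 of the 21936 genes in the expression tables. Ifih1 and Dhx58 encode RNA helicases, Mavs the adaptor of the Ifih1 product, and Tbk1 and Ikbke kinases that this adaptor recruits. Aim2 and Zbp1 encode sensors of double-stranded DNA and of left-handed nucleic acids. Eif2ak2 encodes the double-stranded RNA kinase PKR, Adar an enzyme that edits double-stranded RNA, and Trex1 an exonuclease that removes cytosolic DNA.

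The libraries labelled CKO (n = 3) came from mice of the genotype ALKBH5flox/flox, Lyz2-Cre, APOE-/-. Those labelled WT (n = 3) came from ALKBH5flox/flox, APOE-/- mice, so both groups lack Apoe by label, carry loxP-flanked Alkbh5 alleles and differ in the Cre. Both were kept on a high-fat diet for 4 months, which makes Apoe-deficient mice develop atherosclerosis. Cre expressed from the Lyz2 locus acts in macrophages, monocytes and neutrophils, and its efficiency is not stated. The labels name neither the tissue, the sorting markers nor the animals' age, and leave unsaid whether a separate animal stands behind each library. The p-values thus reflect the scatter of 3 libraries against 3, and that scatter may be technical.

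In this system RNA bound by MDA5, the product of Ifih1, makes MAVS assemble on mitochondria, where it recruits TBK1 and IKKε. These kinases phosphorylate interferon regulatory factors, and the type I interferon that follows raises several of the sensors themselves, such as those encoded by Ifih1, Dhx58, Zbp1 and Eif2ak2, which are known interferon-stimulated genes. ADAR and TREX1 act in the other direction, by altering or removing the host's own nucleic acids before they are sensed. In macrophages AIM2 assembles an inflammasome on DNA, and ZBP1 can start necroptosis through RIPK3 and MLKL.

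Expression was deposited as FPKM, which scales reads by gene length and by the library's assigned reads. The libraries labelled CKO held 15422154 to 17802617 assigned reads and those labelled WT 16660206 to 18418903. The targeted gene went against the label: Alkbh5 had 9.15, 8.61 and 8.50 FPKM in the libraries labelled CKO, against 3.77, 3.95 and 3.88 FPKM in those labelled WT, and none of the 3 was low in the libraries labelled CKO. The labels do not say which exons are flanked, so a total over the gene does not test their removal. Apoe averaged 95.0 ± 4.69 FPKM in the libraries labelled CKO and 1635 ± 29.3 FPKM in those labelled WT, although both genotypes are given as APOE-/-.

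Markers of cell types did not move as blocks. All 12 macrophage markers reached 1 FPKM, and 4 were called higher and 8 lower. For these counts and those of the other markers, 30.5% of all tested genes were called higher and 50.5% lower, by the test given below. Their sum of 9482 to 9903 FPKM in the libraries labelled CKO and 17167 to 19080 FPKM in those labelled WT is mostly Lyz2, the locus that carries the Cre, and without it the sum was 3052 to 3105 FPKM in the libraries labelled CKO and 2771 to 2849 FPKM in those labelled WT. Higher were Adgre1 (777.6 ± 19.5 FPKM in CKO-labelled and 222 ± 2.98 FPKM in WT-labelled libraries), Fcgr1, Cd14 and Csf1r, and among the lower was Mrc1 (1.89 ± 0.118 FPKM in CKO-labelled and 29.7 ± 0.853 FPKM in WT-labelled libraries). Of the 7 monocyte markers 5 were higher and 2, Ccr2 and Chil3, lower, and their sum was 628 to 673 FPKM in the libraries labelled CKO and 169 to 204 FPKM in those labelled WT. Without Hp it was 246.5 to 273 FPKM in the libraries labelled CKO and 156 to 188 FPKM in those labelled WT. Of 12 neutrophil markers 11 reached 1 FPKM and 9 were tested, 7 of them lower and 2, Lcn2 and Mmp8, higher, with a sum of 242 to 249.6 FPKM in the libraries labelled CKO and 637 to 935 FPKM in those labelled WT. The granule genes Ngp and Ltf were near 0 in the libraries labelled CKO (0.305 ± 0.0861 and 0.104 ± 0.033 FPKM), against 108 ± 19.3 and 42.0 ± 7.77 FPKM in those labelled WT, while Lcn2 had 152 ± 7.25 FPKM in the libraries labelled CKO and 21.7 ± 4.54 FPKM in those labelled WT. Of 10 dendritic cell markers only 2 reached 1 FPKM, and nearly all of their sum of 1040 to 1099 FPKM in the libraries labelled CKO and 109 to 124 FPKM in those labelled WT was Bst2, itself an interferon-stimulated gene. Of the other types, 1 of 11 T and NK cell, 3 of 7 B cell, 3 of 6 endothelial, 0 of 7 fibroblast and 3 of 9 erythroid and platelet markers reached 1 FPKM, with Mzb1, Msln and Hba-a2 at 0. Summed levels were 1.5 to 1.8 FPKM in the libraries labelled CKO and 5.6 to 5.8 FPKM in those labelled WT for T and NK cells, a gap mostly of Cd4. They were 1.6 to 2.3 FPKM in the libraries labelled CKO and 4.0 to 6.0 FPKM in those labelled WT for B cells, and 7.8 to 9.0 against 26.4 to 27.1 FPKM for endothelial cells, mostly Vwf. Fibroblast markers summed to 0.83 to 1.1 FPKM in the libraries labelled CKO and 0.56 to 0.90 FPKM in those labelled WT, and erythroid and platelet markers to 115 to 128 against 173 to 189 FPKM, a gap mostly of Ppbp. The genes named here were picked after their values were seen. The part of these marker differences in the gene differences that follow was not tested.

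Most of the sensing genes were higher in the libraries labelled CKO. Of the 9 genes that passed the filter of 1 FPKM in at least 3 libraries, 7 were called higher and 2 lower by limma with Benjamini-Hochberg adjustment over all 9953 tested genes (adjusted p under 0.05). The 7 were Zbp1, Dhx58, Ifih1, Eif2ak2, Adar, Tbk1 and Ikbke, and the 2 lower were Mavs and Aim2. The groups differ across much of the transcriptome, so these counts stand against a background in which 81.1% of tested genes were called, 30.5% higher and 50.5% lower. In all, 3038 genes were called higher and 5031 lower. With median-of-ratios scaling, which moves the median log2 fold change of all genes from -0.14 to 0.01, the split was 4058 higher and 3874 lower. Quantile normalization moves that median to -0.05. The 7 genes stayed higher and Mavs stayed lower under both, while Aim2 was not called. The median log2 fold change of the 9 was 1.35, against -0.14 for all tested genes. A log2 fold change of at least 1 was seen in 5 of the 9, against 8.35% of all tested genes. In 8 of the 9 the 3 libraries of each group did not overlap, as in 82.5% of all tested genes. A bulk value cannot tell fewer cells of a type from less RNA per cell.

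**Figure D1:**
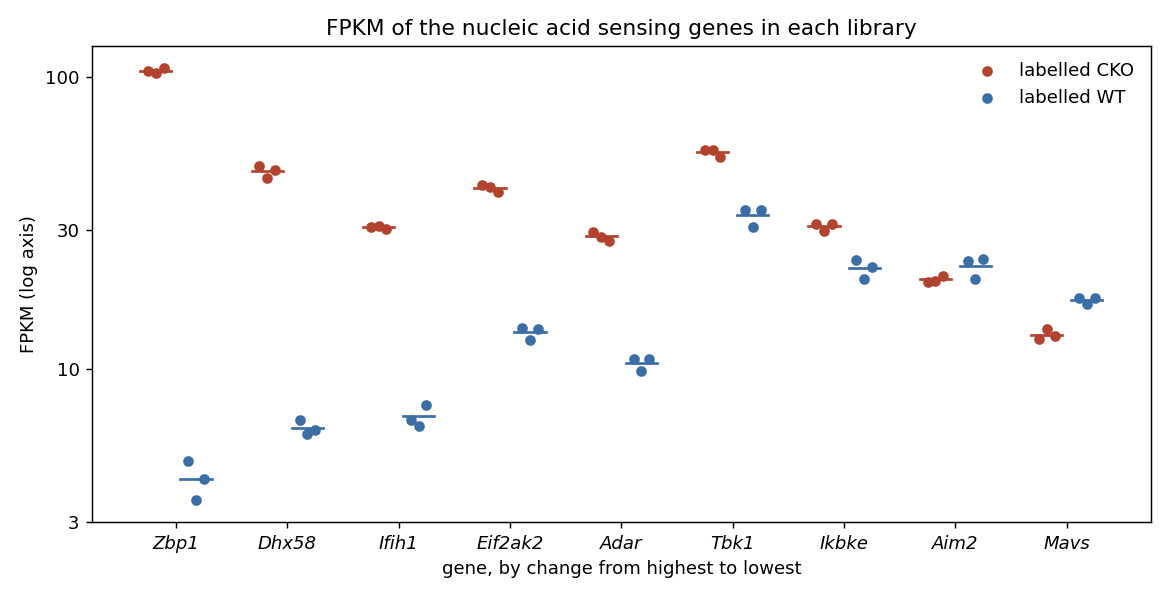
FPKM of the 9 tested sensing genes on a log axis, with 1 point for each library, red for the libraries labelled CKO and blue for those labelled WT, and a line at each group's mean (n = 3 each). Zbp1, at 102.6 to 107.4 FPKM in the libraries labelled CKO and 3.57 to 4.86 FPKM in those labelled WT, shows the widest gap, and only for Aim2 do the groups overlap.

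The 2 groups also ordered the genes differently by level. In the libraries labelled CKO Zbp1 stood highest, followed by Tbk1, Dhx58 and Eif2ak2, then Ikbke and Ifih1, which overlapped, then Adar, Aim2 and Mavs. In those labelled WT Tbk1 stood highest, followed by Aim2 and Ikbke, which overlapped, then Mavs, Eif2ak2 and Adar, then Ifih1 and Dhx58, which overlapped, and Zbp1 last. All other neighbours in these orders had separate ranges over the 3 libraries. Zbp1 thus stood at opposite ends of the 2 orders, and Mavs was last in the libraries labelled CKO. The order within a group depends on the lengths that FPKM divides by. These count all exon bases of a gene, such as 9018 for Ikbke and 3272 for Dhx58.

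The start regions of the genes were searched for 2 short motifs of interferon signalling, because several of the 10 genes are known targets of that signalling. Of the 10 genes, 8 were matched by symbol in the RefSeq promoter table (GRCm38.p6, 250 bases before to 50 after each start), and Dhx58 and Zbp1 were not analysed there. The core of the interferon-stimulated response element, GAAA, 2 free bases and GAAA again, lay in a window of 2 of the 8 genes on either strand, Ifih1 and Eif2ak2, against 3.99% of 27025 genes in the table. The dimer motif of STAT factors, TTCNNNGAA, lay in a window of 2 of the 8, Eif2ak2 and Adar, against 9.55% of genes. Adar has several listed starts, and the match is at the start at position 89730718. The 4 stretches are shown because they hold those matches, in capitals, each 5′ to 3′ on the gene's strand.
Ifih1, chr2:62646206-62646235, minus strand, response element core at bases 33 to 42 after the start: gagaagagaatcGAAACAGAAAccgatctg
Eif2ak2, chr17:78882535-78882564, minus strand, response element core at bases 19 to 28 after the start: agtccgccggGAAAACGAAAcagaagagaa
Eif2ak2, chr17:78882731-78882760, minus strand, STAT dimer motif at bases -178 to -170: ctgcagagctTTCCCAGAAtggaagccagg
Adar, chr3:89730730-89730759, plus strand, STAT dimer motif at bases 23 to 31 after that start: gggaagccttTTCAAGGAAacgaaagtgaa
The motifs do not overlap each other in Eif2ak2. A match is a run of letters and not a shown binding site, and its absence from a window says nothing of the factor.

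Both RNA helicase genes were higher in the libraries labelled CKO. Ifih1 (chr2:62595798-62646255 in mm10), which encodes MDA5, the sensor of long double-stranded RNA, had 30.7, 30.9 and 30.1 FPKM in the libraries labelled CKO, against 6.70, 6.42 and 7.57 FPKM in those labelled WT. All 3 libraries labelled CKO lay above all 3 labelled WT, at a mean of 30.6 ± 0.403 against 6.90 ± 0.602 FPKM (SD, n = 3 each), 4.43-fold. The log2 fold change on FPKM + 1 was 2.0 ± 0.053 (SE, adjusted p = 2.11e-11), above that of 96.8% of tested genes. Its values rest on 3885 to 4376 reads in each library labelled CKO and 940 to 1030 in each labelled WT. Dhx58 (chr11:100694884-100704271) encodes LGP2, a helicase without the CARD domains through which MDA5 signals, and modulates MDA5 and RIG-I. It had 49.4, 45.0 and 48.0 FPKM in the libraries labelled CKO, against 6.69, 6.01 and 6.22 FPKM in those labelled WT. The means were 47.5 ± 2.22 and 6.31 ± 0.346 FPKM, a 7.53-fold difference without overlap, with a log2 fold change of 2.73 ± 0.049 (adjusted p = 7.61e-13). Of its exon bases 4.31% overlap an antisense gene, Dhx58os, as do 2.48% of those of Ikbke and 4.32% of those of Eif2ak2 with antisense genes of their own. The kit marks strand, but whether the counting used it is not given in the sources used here.

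The ratio of Dhx58 to Ifih1 FPKM within a library was 1.61, 1.46 and 1.59 in the libraries labelled CKO, against 0.998, 0.937 and 0.821 in those labelled WT. All 3 ratios labelled CKO lay above 1 and above all 3 labelled WT. Their place against 1 depends on the listed lengths, 3272 bases for Dhx58 and 8165 for Ifih1. The means were 1.55 ± 0.0816 and 0.919 ± 0.0896, and the log2 difference of 0.76 does not depend on the scaling between libraries. By exact two-sided permutation p was 0.1, which 3 against 3 cannot go below, and adjustment over the 2 ratios examined leaves it at 0.1. The third helicase of the family, RIG-I (Ddx58), averaged 60.3 ± 0.751 FPKM in the libraries labelled CKO and 10.7 ± 0.509 FPKM in those labelled WT (log2 fold change 2.39 ± 0.040, adjusted p = 4.53e-13).

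The adaptor went the other way. Mavs (chr2:131234063-131248025) had 12.7, 13.7 and 13.0 FPKM in the libraries labelled CKO, against 17.5, 16.7 and 17.5 FPKM in those labelled WT. Its 3 values labelled CKO lay below all 3 labelled WT, at 13.1 ± 0.534 and 17.2 ± 0.444 FPKM, 1.31-fold lower. The log2 fold change was -0.37 ± 0.043 (adjusted p = 9.99e-06), and it stayed between -0.40 and -0.19 under all alternative settings. This size of change is common in the data, since 33.5% of tested genes had a lower log2 fold change.

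Among the other genes of RNA sensing, a list of 14, 13 were tested, with a median log2 fold change of -0.27. Of the 13, 4 (30.8%) were higher and 8 (61.5%) lower, against 30.5% and 50.5% of all tested genes. Higher were Ddx60, a helicase linked to RIG-I signalling (25.1 ± 0.438 FPKM in CKO-labelled and 1.80 ± 0.134 FPKM in WT-labelled libraries, log2 fold change 3.23), Ddx58, and the ubiquitin ligases of RIG-I, Trim25 (0.74) and Rnf135 (1.10). The 8 lower genes changed by -0.89 to -0.22 and were mostly general RNA helicases such as Dhx9 and Ddx3x. Under median-of-ratios scaling 5 were higher and 6 lower. The oligoadenylate synthetases, which make short oligoadenylates when they bind double-stranded RNA, were higher together: all 7 tested of 8 listed genes were called higher, with a median of 2.83. Oasl1 averaged 263.7 ± 16.3 FPKM in the libraries labelled CKO and 6.09 ± 0.301 FPKM in those labelled WT (log2 fold change 5.22), and Oas3, Oas1g and Oas1a changed by 3.39, 2.83 and 2.15. The Oas1 genes are close copies, so the split of reads between them is uncertain.

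**Figure D2:**
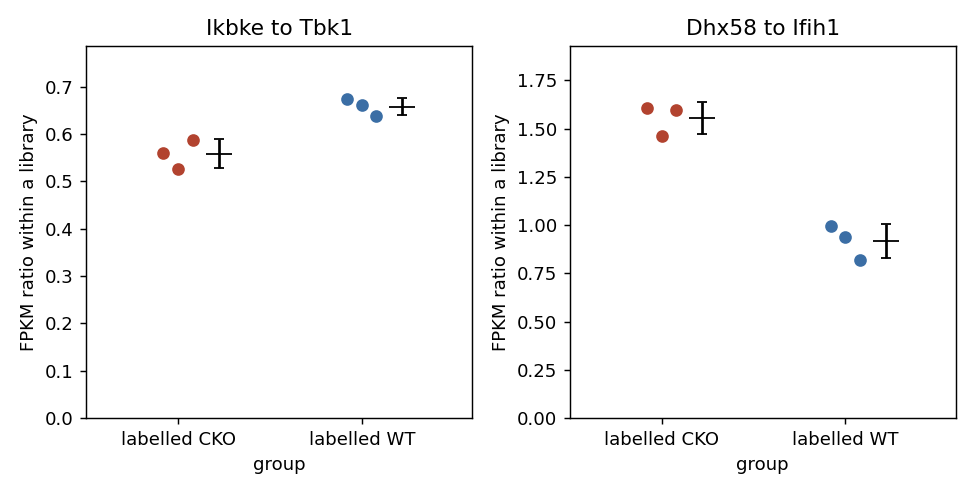
FPKM ratio of related genes within each library, Ikbke to Tbk1 on the left and Dhx58 to Ifih1 on the right, with 1 point for each of the 3 libraries per group and the mean ± SD beside them. Ikbke to Tbk1 averages 0.558 in the libraries labelled CKO and 0.658 in those labelled WT, and Dhx58 to Ifih1 averages 1.55 in the libraries labelled CKO and 0.919 in those labelled WT.

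Zbp1 (chr2:173206612-173218923) showed the largest change of the 9 genes. It encodes a sensor of Z-form nucleic acids that binds RIPK3. Zbp1 had 104.6, 102.6 and 107.4 FPKM in the libraries labelled CKO, against 4.86, 3.57 and 4.20 FPKM in those labelled WT. The libraries labelled CKO lay far above the others, at 104.9 ± 2.39 against 4.21 ± 0.646 FPKM, a 24.9-fold difference. Its log2 fold change was 4.35 ± 0.073 (adjusted p = 4.70e-13), the 54th highest of the 9953 tested genes. Among genes with a value above 0, Zbp1 stood at the 97.5th to 97.6th percentile of level in the libraries labelled CKO and at the 53.3rd to 58.5th in those labelled WT. Even the lower values rest on 226 to 316 reads per library.

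The listed partners of ZBP1 and AIM2 were 8 genes, all tested, with a median of 0.61. Of the 8, 6 (75%) were higher, 1 (12.5%) lower and 1 not called, against 30.5% and 50.5% of all tested genes. Mlkl, which permeabilises the membrane in necroptosis, averaged 86.6 ± 2.16 FPKM in the libraries labelled CKO and 10.3 ± 1.19 FPKM in those labelled WT (log2 fold change 2.96). Nlrp3, the sensor of another inflammasome, changed by 2.18, the inflammasome protease gene Casp1 by 1.31, and Casp8, whose protease restrains necroptosis, by 0.58. The 1 lower gene was Pycard, the adaptor between AIM2 and caspase-1 (2.92 ± 0.227 FPKM in CKO-labelled and 5.79 ± 0.384 FPKM in WT-labelled libraries, -0.79), and Ripk3, the gene of the kinase that ZBP1 binds, changed by 0.63. Those last 2 were named after their values were seen.

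Aim2 (chr1:173350879-173466040), the DNA sensor of the inflammasome, had close levels in both groups. It had 19.94, 20.02 and 20.87 FPKM in the libraries labelled CKO, against 23.4, 20.3 and 23.8 FPKM in those labelled WT. The groups overlapped, with 1 library labelled WT among the values labelled CKO, and averaged 20.3 ± 0.518 and 22.5 ± 1.92 FPKM. The log2 fold change was -0.14 ± 0.056 and was called lower (adjusted p = 0.0375), while the exact two-sided permutation test of 3 against 3 gave p = 0.2. It lies beside the median of all tested genes (-0.14), and under median-of-ratios scaling the change was 0.04 (adjusted p = 0.548). The call was also lost without replicates 1 or 2 labelled CKO (adjusted p = 0.0973 and 0.0883) and without replicates 1 or 3 labelled WT (0.112 and 0.151).

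Aim2 lies at the edge of a block of related genes, the interferon-inducible PYHIN family, whose proteins share its DNA-binding HIN domain. These neighbours were taken up after their values were seen. Within 1 Mb of Aim2 on chromosome 1 lie 13 genes of the family with it, 12 of them tested. Of the 12, 10 were higher, 1 lower (Aim2) and 1 not called, against 30.5% higher and 50.5% lower among all tested genes. The 11 tested relatives had a median log2 fold change of 2.93. Ifi205 averaged 49.9 ± 7.66 FPKM in the libraries labelled CKO and 0.234 ± 0.0411 FPKM in those labelled WT (log2 fold change 5.36). Ifi206, the nearest neighbour, averaged 88.7 ± 1.74 FPKM in the libraries labelled CKO and 1.59 ± 0.287 FPKM in those labelled WT (5.12). Ifi204, which has been described as a mouse DNA sensor upstream of STING, averaged 142.8 ± 1.12 FPKM in the libraries labelled CKO and 17.9 ± 0.806 FPKM in those labelled WT (2.93). Ifi207 had values of 67.8 ± 3.26 FPKM in the libraries labelled CKO and 66.9 ± 3.41 FPKM in those labelled WT, and was not called (0.02, adjusted p = 0.678). Several of these genes are near-identical copies, and the split of their reads is uncertain.

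**Figure D3:**
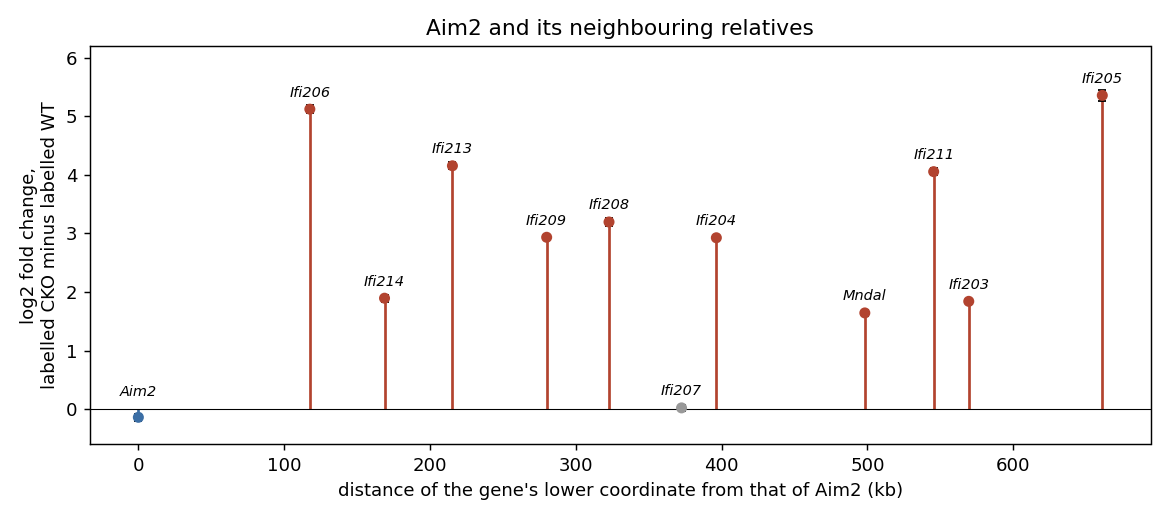
Log2 fold change of FPKM + 1, labelled CKO minus labelled WT, of the 12 tested PYHIN genes against the distance in kb of each gene's lower coordinate from that of Aim2. Points are red where called higher, blue where called lower and grey where not called, bars are standard errors, and Aim2 (-0.14) and Ifi207 (0.02) sit at the zero line while the other 10 lie between 1.64 and 5.36.

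Of the 19 other genes of DNA sensing listed, 18 were found by symbol and 16 tested. Of these 6 (37.5%) were higher, 7 (43.8%) lower and 3 not called, against 30.5% and 50.5% of all tested genes. Their median was -0.06. The higher genes with the smallest p were again of the PYHIN block, Ifi204, Ifi205 and Ifi203, with Ifi35 (21.2 ± 1.37 FPKM in CKO-labelled and 4.80 ± 0.0897 FPKM in WT-labelled libraries, log2 fold change 1.94). The lower genes changed by -0.29 to -0.16 and depended on the scaling, with 7 higher and 2 lower after median-of-ratios scaling. The central DNA sensor and its adaptor are given for the reader although the naming rule did not choose them. Cgas averaged 9.31 ± 0.305 FPKM in the libraries labelled CKO and 4.95 ± 0.473 FPKM in those labelled WT (0.80, adjusted p = 2.50e-07). Sting1 averaged 15.6 ± 0.256 FPKM in the libraries labelled CKO and 17.5 ± 0.521 FPKM in those labelled WT, with a change of -0.16 that turned to 0.02 after median-of-ratios scaling.

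Both kinase genes were modestly higher. Tbk1 (chr10:121546455-121586787), which phosphorylates IRF3, had 56.0, 56.2 and 53.3 FPKM in the libraries labelled CKO, against 35.1, 30.7 and 35.1 FPKM in those labelled WT. The groups did not overlap, at 55.1 ± 1.63 and 33.6 ± 2.54 FPKM, 1.64-fold, with a log2 fold change of 0.70 ± 0.051 (adjusted p = 1.46e-07). Ikbke (chr1:131254343-131279606), which encodes IKKε, the inducible relative of TBK1, had 31.3, 29.6 and 31.3 FPKM in the libraries labelled CKO, against 23.6, 20.3 and 22.4 FPKM in those labelled WT. Its groups were also apart, at 30.8 ± 0.998 and 22.1 ± 1.69 FPKM, 1.39-fold, with a log2 fold change of 0.46 ± 0.052 (adjusted p = 7.72e-06). Both changes lie within the range that holds the middle of the tested genes, whose 10th and 90th percentiles were -1.0 and 0.82. The ratio of Ikbke to Tbk1 FPKM was 0.560, 0.527 and 0.588 in the libraries labelled CKO, against 0.674, 0.662 and 0.638 in those labelled WT. Every ratio labelled CKO lay below every ratio labelled WT. The means were 0.558 ± 0.0307 and 0.658 ± 0.0181, a log2 difference of -0.24 (exact two-sided permutation p = 0.1, the smallest possible, and 0.1 after adjustment).

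**Figure D4:**
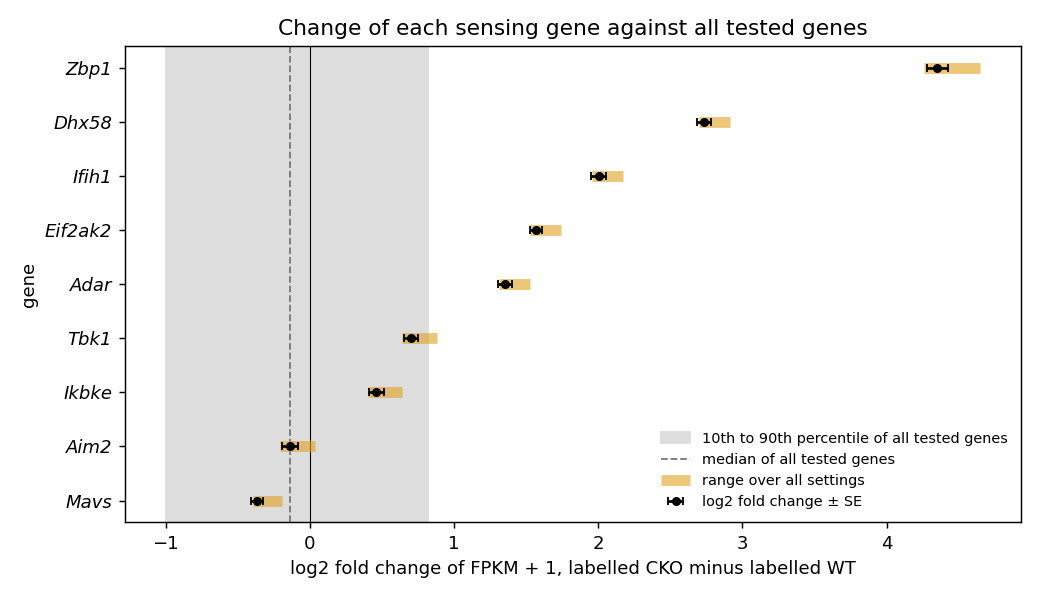
Log2 fold change of FPKM + 1, labelled CKO minus labelled WT, of the 9 tested sensing genes (points, with standard errors), the range over all alternative settings (orange bars) and the 10th to 90th percentile of all tested genes (grey). Zbp1, Dhx58, Ifih1, Eif2ak2 and Adar lie right of the grey band, and Tbk1, Ikbke, Aim2 and Mavs inside it by their main values.

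The 18 listed adaptors and targets of the kinases were all tested, with a median of 0.07. Of the 18, 9 (50%) were higher, 7 (38.9%) lower and 2 not called, against 30.5% and 50.5% of all tested genes. The largest change was that of Irf7, the interferon-inducible relative of IRF3, at 530.2 ± 7.68 FPKM in the libraries labelled CKO and 11.6 ± 0.423 FPKM in those labelled WT (log2 fold change 5.40). The chaperone gene Hsp90aa1 changed by 1.68, Traf2 by 1.57 and the TBK1-binding adaptor Tank by 1.40. Irf3, the constitutive factor, was lower, at 8.32 ± 0.321 FPKM in the libraries labelled CKO and 12.0 ± 0.702 FPKM in those labelled WT (-0.48), and was named after its value was seen. The 18 listed negative regulators gave 16 tested genes, of which 8 (50%) were higher, 6 (37.5%) lower and 2 not called (median 0.16). Their background is the same 30.5% and 50.5%. Isg15, a ubiquitin-like modifier, averaged 799.5 ± 46.5 FPKM in the libraries labelled CKO and 13.0 ± 0.200 FPKM in those labelled WT (5.84), and its protease gene Usp18 changed by 3.73. Trim30a changed by 2.21 and Tnfaip3, which encodes the deubiquitinase A20, by 2.17.

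Eif2ak2 and Adar, whose products both act on double-stranded RNA, were higher in the libraries labelled CKO. Eif2ak2 (chr17:78852564-78882573), whose kinase stops translation by phosphorylating eIF2α, had 42.7, 41.9 and 40.4 FPKM in the libraries labelled CKO, against 13.9, 12.6 and 13.7 FPKM in those labelled WT. The groups did not overlap, at 41.6 ± 1.17 and 13.4 ± 0.713 FPKM, 3.11-fold, with a log2 fold change of 1.57 ± 0.044 (adjusted p = 3.35e-11). Its start region holds both motifs printed above. Adar (chr3:89715022-89753446), which converts adenosine to inosine in double-stranded RNA and so keeps it from MDA5, had 29.4, 28.4 and 27.4 FPKM in the libraries labelled CKO, against 10.9, 9.89 and 10.8 FPKM in those labelled WT. Here too the groups were apart, at 28.4 ± 0.997 and 10.5 ± 0.553 FPKM, 2.70-fold, with a log2 fold change of 1.35 ± 0.046 (adjusted p = 1.87e-10). In GENCODE M21, 16.8% of the exon bases of Adar overlap Chrnb2 on the opposite strand. Chrnb2 averaged 0.280 ± 0.0165 FPKM in the libraries labelled CKO and 0.515 ± 0.0436 FPKM in those labelled WT. The effect of this overlap on the values of Adar was not tested. All 12 listed genes around eIF2α were tested, with a median of 0.24. Of the 12, 7 (58.3%) were higher and 5 (41.7%) lower, against 30.5% and 50.5% of all tested genes. Atf4, the transcription factor translated when eIF2α is phosphorylated, averaged 146 ± 4.30 FPKM in the libraries labelled CKO and 55.9 ± 3.83 FPKM in those labelled WT (1.37). The phosphatase subunit gene Ppp1r15b changed by 0.55, the kinase gene Eif2ak3 by -0.91 and the kinase inhibitor gene Dnajc3 by -0.64.

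Trex1 (chr9:109057933-109059734) is listed at 0 in all 6 libraries and could not be tested. In GENCODE M21 all 1147 of its exon bases, the listed length, lie within exons of Atrip on the same strand, so it has 0 bases of its own by which a read could be assigned to it. Atrip was not called, at 1.496 ± 0.134 FPKM in the libraries labelled CKO and 1.70 ± 0.149 FPKM in those labelled WT (log2 fold change -0.11, adjusted p = 0.147). The 0 therefore cannot be read as absence of Trex1 RNA.

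Of the other enzymes that remove or control nucleic acids, 17 were listed and 14 tested. Of these 4 (28.6%) were higher, 9 (64.3%) lower and 1 not called, against 30.5% and 50.5% of all tested genes. Their median was -0.66. The lysosomal exonuclease gene Pld3 averaged 148 ± 3.10 FPKM in the libraries labelled CKO and 517 ± 8.37 FPKM in those labelled WT (log2 fold change -1.80). Its relative Pld4 changed by -1.16 and the lysosomal DNase gene Dnase2a by -1.61. Samhd1, a dNTP hydrolase mutated with TREX1 and ADAR in Aicardi-Goutières syndrome in humans, was higher, at 98.0 ± 0.822 FPKM in the libraries labelled CKO and 47.3 ± 1.68 FPKM in those labelled WT (1.03). The 3 subunit genes of RNase H2 changed by -0.80 to -0.64; they were taken up after their values were seen.

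The interferons themselves were nearly unread. Of 11 type I and III interferon genes listed, 8 had 0 reads in all 6 libraries. Ifnb1 had 5, 1 and 4 reads in the 3 libraries labelled CKO, 10 in all, and 0 over the 3 labelled WT. Against a floor of 3 reads over the WT-labelled group, its pooled FPKM in the libraries labelled CKO was 3.51-fold higher. The floor allows for counting error in the WT-labelled libraries only, and not for that of the 10 reads. Of the receptor genes 5 were tested, with a median of 0.28. They were 3 (60%) higher and 2 (40%) lower, against 30.5% and 50.5% of all tested genes. Ifnar1 averaged 43.3 ± 1.09 FPKM in the libraries labelled CKO and 23.9 ± 0.537 FPKM in those labelled WT (log2 fold change 0.83), and its partner Ifnar2 changed by 0.57. The interferon gamma receptor gene Ifngr1 averaged 21.96 ± 0.533 FPKM in the libraries labelled CKO and 48.9 ± 2.51 FPKM in those labelled WT (-1.12), and Il10rb changed by -0.94.

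Over all the pathway lists, 138 of 140 listed genes were found and 118 tested. Of these 56 (47.5%) were higher and 52 (44.1%) lower, set against 30.5% and 50.5% of all tested genes, with a median of -0.00065.

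**Figure D5:**
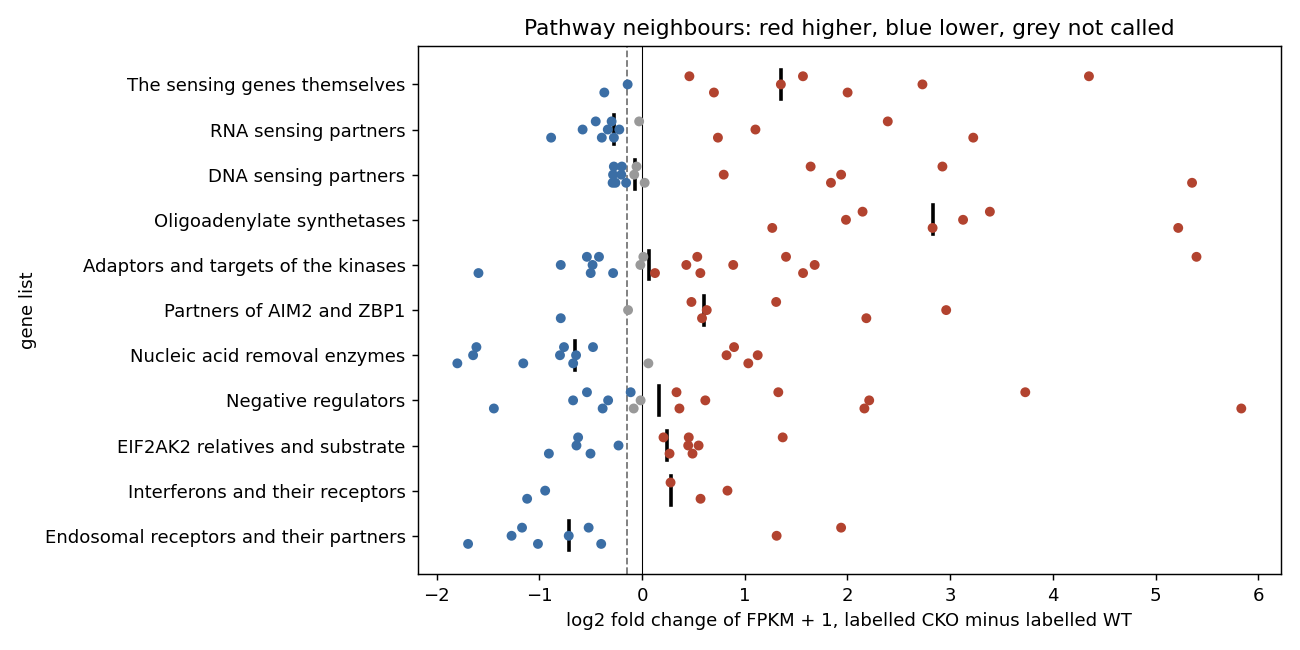
Log2 fold change of FPKM + 1, labelled CKO minus labelled WT, of the tested genes of each pathway list, 1 point a gene, red where called higher, blue where called lower and grey where not called, with a black bar at the list's median and a dashed line at the median of all tested genes. The oligoadenylate synthetases are all higher (median 2.83), while the nucleic acid removal enzymes (median -0.66) and the endosomal receptors with their partners (median -0.71) lie mostly left of 0. Of all tested genes 30.5% were called higher and 50.5% lower.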

How the data were processed

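RNA of sorted macrophages was extracted with TRIzol and made into libraries with a stranded mRNA kit, per the labels' protocols. The authors deposited 1 table per library of FPKM values, per the file headers, covering 21936 genes. Their roles and order not given, the tools in the submitters' processing notes are GATK 4.0.11.0, featureCounts 1.6.2, Cufflinks, HISAT2 2.1.0, DESeq2 1.22.1, StringTie 1.3.4d and fastp 0.19.3, and the build is mm10. FPKM times gene length gave whole reads in 100% of values within 0.01 reads, so depth could be recovered, and 3 reads of a 1 kb gene correspond to 0.163 to 0.195 FPKM. A chi-square per degree of freedom between libraries of a group was 2.16 to 3.18, so no 2 agreed within counting noise.

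Groups and replicate numbers came from the sample titles. A gene entered the test if 3 or more libraries reached 1 FPKM. The test was limma 3.58.1, run in R 4.3.3 with an intensity trend, and its input was log2(FPKM + 1), which understates changes of low genes, with Benjamini-Hochberg adjustment and a threshold of 0.05. Ratios were compared by exact permutation. Tables and exact tests used scipy 1.17.1, pandas 2.3.3 and numpy 2.4.6 under Python 3.11.15. The limma step was tested on simulated reads with far fewer changed genes than were called here. Their scatter was set beforehand and not fitted to these libraries, so that test gives no error rate for these calls.

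The 10 genes, the lists and the tests were chosen with earlier results of these data known, so none is independent support; 1 listed gene is not reported here. Named were the 10 genes, up to 4 tested genes with the smallest p from each list, and Alkbh5, Lyz2 and Apoe as label checks; Lyz2 averaged 6556 ± 211 FPKM in the libraries labelled CKO and 15116 ± 992 FPKM in those labelled WT. Gene positions and exon lengths of the 10 genes equal those in GENCODE M21. The alternatives tried were a block for the replicate number, each library left out, another pseudocount (0.1), filter (none, or a mean FPKM of at least 5), scaling, a fold threshold, and limma voom on the recovered reads, which was chosen after seeing the data. Positions are in mm10 (GRCm38) throughout, and promoter sequences are RefSeq's.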

Additional observations from a re-analysis of the deposited data

How the results depend on the processing

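Of 126 recomputed values of the 9 tested sensing genes, 115 kept direction and side of the threshold and 10 lost the call. Of the 10, 4 were Tbk1, Ikbke, Mavs and Aim2 where a log2 fold change of at least 1 was asked for, and 6 were Aim2, with no filter (adjusted p = 0.0823), after quantile normalization (0.0516) and without each of 4 libraries. The change of Aim2 reversed to 0.0365 after median-of-ratios scaling. The sensing genes called lower numbered 1 after median-of-ratios scaling, after quantile normalization and with no filter, and 0 with the fold threshold, which left 5 called higher. With that threshold 831 of all tested genes were higher and 998 lower, and of the pathway lists 32 were higher and 11 lower. With a mean FPKM of at least 5, which tests fewer genes, 3185 of all tested genes were lower.

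Without 1 library at a time, 2634 to 2952 of all tested genes were higher and 4402 to 4907 lower, 7 sensing genes were higher and 1 to 2 lower, and 52 to 56 genes of the pathway lists were higher and 49 to 52 lower. The log2 ratio differences were -0.28 to -0.20 for Ikbke to Tbk1 and 0.68 to 0.82 for Dhx58 to Ifih1.

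Deviations of same-numbered libraries correlated at 0.019, 0.012 and -0.039, so no shared deviation was seen. This cannot tell whether same-numbered libraries were paired in the experiment. With the replicate number as a block, 3018 of all tested genes were higher and 5023 lower. The sensing genes stayed at 7 higher and 2 lower, and the pathway lists had 56 higher and 51 lower. The ratio differences of -0.24 and 0.76 then had an exact permutation p of 0.25, the smallest possible with this block. The planned edgeR fits on recovered reads were not run, and limma voom on those reads was run in their place. The planned protein comparison was not run. Depth limits only the lowest values, such as Ifnb1 at 10 reads.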

Other observations

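Toll-like receptors of the endosome sense RNA and DNA inside the compartment that takes up extracellular material. A list of 5 of these receptors with a chaperone, a protease and transporters that serve them held 9 genes, all tested. In the libraries labelled CKO 2 were higher and 7 lower, against a background of 30.5% higher and 50.5% lower, with a median log2 fold change of -0.71, against -0.14 for all tested genes. Of the 5 receptor genes alone, 1 was higher and 4 were lower, with changes of -1.69 to 1.31. Tlr8 averaged 26.8 ± 1.32 FPKM in the libraries labelled CKO and 66.1 ± 0.882 FPKM in those labelled WT (log2 fold change -1.27). The protease gene Lgmn, whose enzyme processes these receptors, changed by -1.01. Of a pair of related transporters of the endosome, Slc15a3 averaged 184 ± 5.20 FPKM in the libraries labelled CKO and 47.3 ± 2.50 FPKM in those labelled WT (1.94), while Slc15a4 averaged 10.4 ± 0.0978 FPKM in the libraries labelled CKO and 24.7 ± 0.392 FPKM in those labelled WT (-1.17). The double-stranded RNA receptor gene Tlr3, named after its value was seen, was the other higher gene, at 8.73 ± 0.0217 FPKM in the libraries labelled CKO and 2.92 ± 0.0976 FPKM in those labelled WT (1.31). The counts over the 9 genes were 2 higher and 7 lower after median-of-ratios scaling and after quantile normalization as well.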
